A study of Mus musculus with 8 samples.

Results

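*Ddx58*, *Ddx60*, *Irf7*, *Stat2* and *Usp18* are 5 genes that sense viral RNA, carry the interferon signal to the genome or switch it off again. They were taken by name from the deposited expression table, which lists 875 genes in 8 libraries of mouse embryonic fibroblasts (MEFs), and all 5 were found there. The genes of the table were selected on the difference between cells expressing *EZHIP* and control cells, by a 2-fold cutoff and a posterior probability from EBSeq that also weighs the spread between replicates, so that comparison is described here without a test. The selection thereby favoured genes with close replicates in these groups, whose spread enters the errors of all the tests below. The smallest fold among the 5 genes was 2.03, for *Ddx58*, and 11 of the 380 genes lower in EZHIP cells lay still closer to the cutoff. The 5 genes were also chosen by their role with their values in all groups known.

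Every group had 2 libraries, and all cells derived from MEFs with floxed *EED* alleles, isolated from a mid-gestation mouse embryo. Control cells were the parental line. EZHIP cells expressed the human protein EZHIP and K27M cells expressed histone H3.3 K27M, each from a lentivirus with the EF1a promoter. Per the paper, transduced cells were selected with puromycin. EZHIP and K27M are both inhibitors of PRC2, the complex that methylates lysine 27 of histone H3 and keeps genes silent. EED-null cells had lost *EED*, a core subunit of PRC2, after treatment with a Cre lentivirus that does not persist, and they were 1 clone. No vector or puromycin selection is stated for the control cells. Against control, the effect of a transgene therefore cannot be told apart from that of virus exposure and drug selection. Nor can the loss of *EED* be told apart from the choice of the clone. Nothing in the labels says that the 2 libraries of a group came from separate cultures, and p-values then measure only the spread between these libraries.

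Cells detect foreign RNA in the cytoplasm with helicases such as RIG-I, the product of *Ddx58*. The signal activates IRF transcription factors, which switch on the genes of type I interferons. Secreted interferon binds its receptor on the same or a neighbouring cell, and a complex that contains STAT2, called ISGF3, then binds a short DNA element, the interferon-stimulated response element (ISRE). Many targets of ISGF3 are themselves parts of the pathway, so sensors, transcription factors and inhibitors commonly rise and fall together in fibroblasts as in other cells.

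Promoter sequences of *Ddx58*, *Ddx60*, *Irf7* and *Stat2* were in the RefSeq promoter table (build GRCm38.p6), which gives 250 bases before and 50 bases after each annotated start, and *Usp18* had no entry. A core of the ISRE, GAAA followed by any 2 bases and GAAA again, was searched on both strands, and it matched in 3 of these 4 promoters. The variant GAAANGAAA, with a spacer of 1 base, can overlap it. The stretches below are shown because they hold the matches upstream of the start. They are written 5′ to 3′ on the strand of the gene, with the matched letters in capitals. In *Ddx60* and *Stat2* these are the ISRE core, which in *Stat2* reads as its reverse complement. In *Ddx58* they are the variant, because the ISRE core match of that gene lies just inside the transcript and is not printed.
Ddx60 (chr8:61928014-61928086, plus strand): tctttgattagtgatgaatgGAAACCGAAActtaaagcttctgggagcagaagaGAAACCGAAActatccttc
Stat2 (chr10:128270256-128270305, plus strand): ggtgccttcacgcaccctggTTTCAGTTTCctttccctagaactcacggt
Ddx58 (chr4:40239857-40239905, minus strand): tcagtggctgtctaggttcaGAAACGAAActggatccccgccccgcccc

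The *Ddx60* promoter held the ISRE core at 2 places, which began 53 and 19 bases before the start, and the 10 matched letters were the same in both. The *Stat2* match began 222 bases before the start. Neither the ISRE core nor the variant with a spacer of 1 base was found in the window of *Irf7*, which says only that these letters are not in this window. Of all 32851 RefSeq promoters, 3.44% held the ISRE core and 3.17% the variant, which matched in *Ddx58* and *Stat2*. A second element, TTCNNNGAA, which STAT dimers bind (GAS), matched in 0 of the 4 promoters and in 8.30% of all promoters. These matches describe the sequence and do not show binding.

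**Figure D1:**
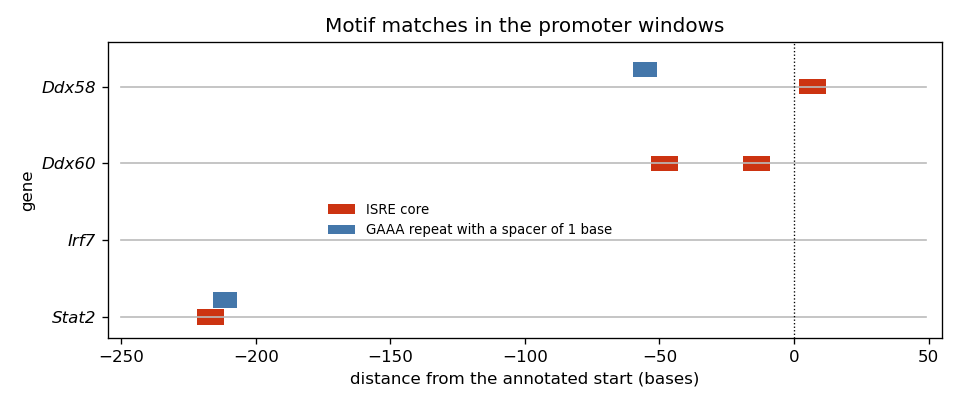
Positions of the ISRE core (red) and of the variant with a spacer of 1 base (blue) in the promoter windows of 4 genes, in bases from the annotated start (dotted line). *Ddx60* held 2 matches of the ISRE core close to the start, *Ddx58* and *Stat2* held 1 each, and *Irf7* held none.

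The deposited value of a gene is the number of reads that RSEM estimated for it, divided by a size factor of the library, and is not scaled by gene length. Estimated reads on the listed genes ranged from 209390 to 424561 per library, and such a selection does not give a library's total depth. From 17 to 2839 estimated reads lay behind a single value of the 5 genes, and values on at most 51 reads were those of *Ddx60* in EED-null and EZHIP cells and of *Irf7* in EED-null cells. Groups were compared on log2(value + 1) with limma, and p-values were adjusted over the 875 genes by the Benjamini-Hochberg method. Called genes had an adjusted p below 0.05 together with a 2-fold or larger change. The control libraries took part in the choice of the rows, so p-values against control for K27M and EED-null cells draw in part on values used in that choice. An effect within bulk cultures can come from fewer expressing cells or from less RNA per cell, which cannot be told apart here.

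All 5 genes followed the same order of groups, lowest in EED-null cells, then EZHIP, then control, and highest in K27M cells, and the libraries of neighbouring groups did not overlap in any of them. Of all listed genes, 41 had this order without overlap, which is 4.69%, and of the genes lower in EZHIP cells 10.8% had it. The order includes the comparison of EZHIP with control that chose the rows, so it is a description. Both EZHIP libraries lay below both control libraries in 43.4% of the table, a share fixed by the selection, since it holds every gene with a lower mean in EZHIP cells. Both EED-null libraries lay below control in 38.6% of the genes, and both K27M libraries lay above control in 57.4%. In EZHIP cells the 5 genes were between 2.03-fold and 2.75-fold lower than in control cells. In EED-null cells they were between 2.66-fold and 5.08-fold lower, and in K27M cells between 1.59-fold and 5.82-fold higher.

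**Figure D2:**
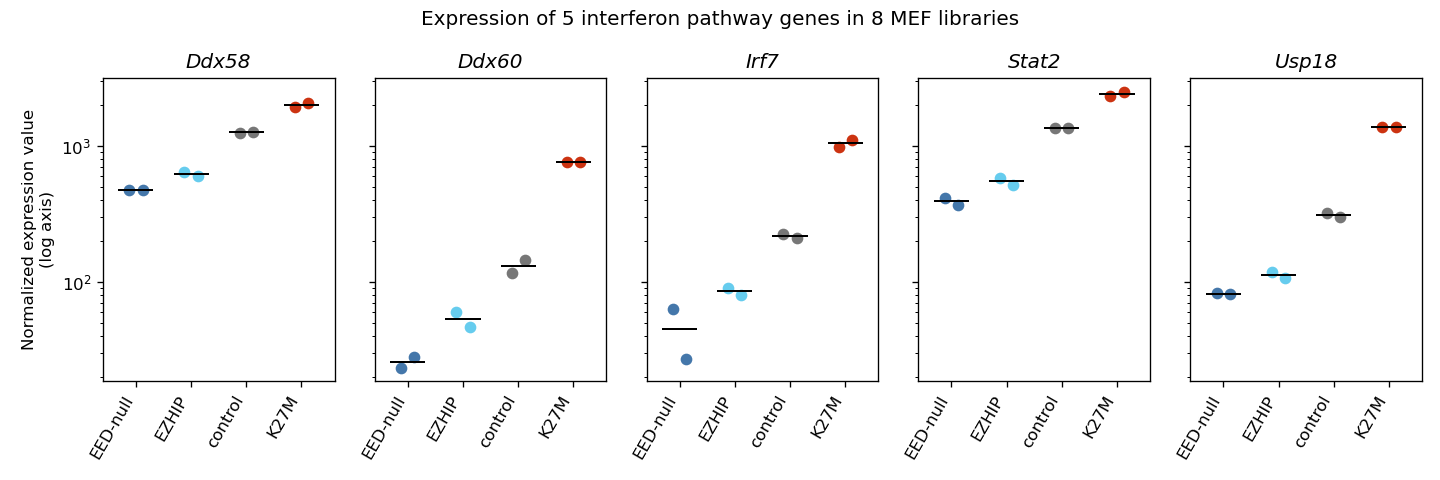
Normalized expression (log axis) of the 5 genes in each library, 2 points per group, with the group mean as a horizontal line. In each panel the groups stand in the order EED-null, EZHIP, control and K27M without overlap, and *Irf7* in EED-null cells shows the widest pair.

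The RNA sensors came first in the pathway. *Ddx58* (ENSMUSG00000040296.8, mm9 chromosome 4, 40150806 to 40186861, minus strand, 18 exons in its longest transcript) encodes RIG-I, which binds double-stranded RNA with a triphosphate end and signals through the adaptor MAVS. Its normalized expression was 1253 and 1270 in the control libraries and 643 and 597 in the EZHIP libraries. The K27M libraries had 1946 and 2069, and the EED-null libraries had 475 and 474. The groups were well apart, and the nearest libraries of K27M and control differed 1.53-fold. In EED-null cells the log2 fold change from control was -1.41 (standard error 0.10, adjusted p = 2.84e-05 from limma), and *Ddx58* was called lower. In K27M cells it was 0.67 (standard error 0.10, adjusted p = 0.000896 from limma), which is under 2-fold, so *Ddx58* was not called.

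*Ddx60* (ENSMUSG00000037921.8, mm9 chromosome 8, 64406884 to 64516498, plus strand, 38 exons) encodes a large helicase of the DExD/H family that interferon induces. It was the gene with the widest swing of the 5. Its values were 117 and 145 in control cells, 60.4 and 46.7 in EZHIP cells, 762 and 765 in K27M cells, and 23.6 and 28.1 in EED-null cells. The K27M libraries were thus several-fold above every other library, while the EED-null values rested on 17 and 29 estimated reads. In K27M cells *Ddx60* rose by 2.54 on the log2 scale (standard error 0.18, limma adjusted p = 3.06e-05), and in EED-null cells its log2 fold change was -2.30 (standard error 0.18, limma adjusted p = 4.60e-05). It was called in both comparisons, in opposite directions.

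Both transcription factors showed the same order of groups. *Irf7* (ENSMUSG00000025498.7, mm9 chromosome 7, 148448605 to 148452380, minus strand, 10 exons) encodes the factor that drives much of the type I interferon genes once the pathway is on. Its control libraries had 224 and 210, its EZHIP libraries 90.0 and 80.9, and its K27M libraries 982 and 1110. The EED-null libraries had 63.8 and 27.1, a ratio of 2.35 between replicates, whereas no other pair of the 5 genes differed by more than 1.29-fold. Those values came from 46 and 28 estimated reads, and their 95% Poisson intervals, 46.7 to 85.1 and 18.0 to 39.2, did not overlap. The pair was singled out as the widest, and the source of its gap was not tested.

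With both libraries, *Irf7* had a log2 fold change of -2.35 (standard error 0.37, adjusted p = 0.00114 from limma) in EED-null cells. Without EED-null replicate 1 it was -2.95, and without EED-null replicate 2 it was -1.75, and *Irf7* stayed called in both cases. K27M cells showed a log2 fold change of 2.26 for *Irf7* (standard error 0.37, limma adjusted p = 0.00151). *Irf7* shares 45 exonic bases with *Phrf1* on the opposite strand, and reads from that short stretch could not be told apart without strand information.

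*Stat2* (ENSMUSG00000040033.8, mm9 chromosome 10, 127707629 to 127729905, plus strand, 24 exons) encodes the STAT protein particular to ISGF3, which carries its transactivation domain. It had 1355 and 1346 in control cells, 586 and 519 in EZHIP cells, 2313 and 2482 in K27M cells, and 416 and 368 in EED-null cells. Its control libraries differed 1.01-fold, and the 4 groups were clearly apart. In EED-null cells it was called lower, with a log2 fold change of -1.78 (standard error 0.12, adjusted p = 2.38e-05 from limma). In K27M cells the log2 fold change of 0.83 (standard error 0.12, adjusted p = 0.000811 from limma) did not reach 2-fold.

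The feedback arm is represented by *Usp18* (ENSMUSG00000030107.9, mm9 chromosome 6, 121195924 to 121220934, plus strand, 11 exons). Its product removes the ubiquitin-like protein ISG15 from targets and blocks signalling at the interferon receptor. Its values were 320 and 299 in control cells, 118 and 107 in EZHIP cells, 1388 and 1373 in K27M cells, and 83.2 and 81.4 in EED-null cells. Replicates lay close together in all groups, and *Usp18* had the smallest standard errors after *Ddx58*. In K27M cells *Usp18* rose by 2.15 on the log2 scale (standard error 0.10, limma adjusted p = 7.49e-06), and in EED-null cells its log2 fold change was -1.90 (standard error 0.10, limma adjusted p = 1.03e-05). It was called in both.

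Of the 5 genes, 3 were called higher in K27M cells (*Ddx60*, *Irf7* and *Usp18*), where 41.4% of the 875 listed genes and 13.9% of the 380 listed genes lower in EZHIP cells were called higher. By the adjusted p-value alone, without the 2-fold limit, all 5 passed at the deposited scale, against 51.4% of the listed genes. In EED-null cells 5 of 5 were called lower, against 25.1% of all listed genes and 55% of those lower in EZHIP cells. The second share is the closer background, since the 5 genes belong to it by the choice of rows. Both comparisons, like that of EZHIP, use the same control libraries.

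**Figure D3:**
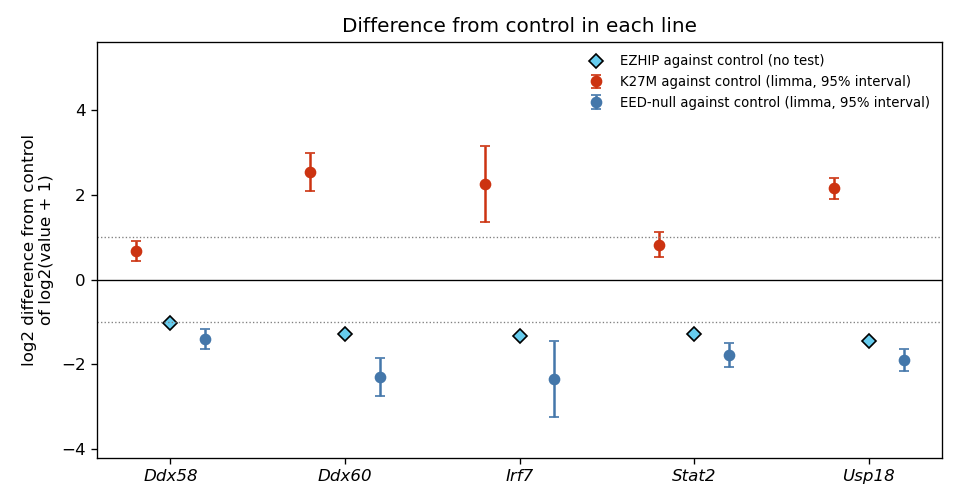
Difference of log2(value + 1) from control in K27M (red circles), EED-null (blue circles) and EZHIP cells (diamonds, no test). Bars are 95% intervals from limma and dotted lines mark a 2-fold change. The 5 genes lie above zero in K27M cells and below it in EZHIP and EED-null cells, and *Ddx58* and *Stat2* stay under 2-fold in K27M cells.

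The size of the K27M response differed among the 5 genes. The 95% intervals of the log2 fold change in K27M cells were 0.43 to 0.91 for *Ddx58* and 0.54 to 1.11 for *Stat2*. For *Irf7*, *Usp18* and *Ddx60* they began at 1.36, 1.90 and 2.10. The intervals of *Ddx58* and *Stat2* thus lay below those of the other 3. Ratios between genes within a library do not depend on its size factor. *Stat2* to *Usp18* was 4.23 and 4.50 in control cells, 4.95 and 4.84 in EZHIP cells and 5 and 4.52 in EED-null cells, but 1.67 and 1.81 in K27M cells. Both K27M libraries lay below the other 6 in this ratio.

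*Ddx58* to *Ddx60*, the ratio of the 2 helicase genes, was 10.7 and 8.73 in control cells and 10.7 and 12.8 in EZHIP cells. It was 2.55 and 2.71 in K27M cells and 20.2 and 16.9 in EED-null cells. *Ddx60* thus moved more than *Ddx58* in K27M and in EED-null cells, the latter on 17 and 29 estimated *Ddx60* reads. The EZHIP ratios overlapped those of control. Levels of different genes can be set side by side only per length. Per kilobase of annotated exon, normalized expression in control cells ranged from 18.9 for *Ddx60* to 307 for *Stat2*, and in K27M cells from 110 for *Ddx60* to 780 for *Usp18*. With the longest transcript as the length, *Ddx58* came first in control cells at 326, *Ddx60* remained last, and *Usp18* remained first in K27M cells.

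The scale of the libraries bears on the K27M values most. The median log2 difference of all 875 listed genes between K27M and control was 0.58, close to the 0.67 of *Ddx58* and the 0.83 of *Stat2*. With the libraries rescaled on the listed genes, that median became 0.15, and the log2 fold changes in K27M cells were 0.21 for *Ddx58*, 0.37 for *Stat2*, 1.70 for *Usp18*, 1.80 for *Irf7* and 2.08 for *Ddx60*. *Ddx58* then had an adjusted p of 0.0655 from limma, the highest of its alternatives, whose lowest was 8.27e-06. The K27M calls for *Ddx60*, *Irf7* and *Usp18* held. The EED-null values also moved, away from zero. After rescaling, their log2 fold changes were -1.80 for *Ddx58*, -2.18 for *Stat2*, -2.29 for *Usp18*, -2.69 for *Ddx60* and -2.74 for *Irf7*. All 5 genes stayed called lower there. Both the median and the rescaling rest on genes chosen by their EZHIP response, and for 495 genes EZHIP gave the higher mean. Neither is therefore a neutral scale, and rescaling can also remove a change of the cells. With K27M, 13.9% of the 380 genes lower in EZHIP cells were called higher and 39.7% lower. Whether the rise of *Ddx58* and *Stat2* comes from the scale of the libraries was not tested.

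EED-null and K27M cells were also compared directly. Their libraries were not used to select the genes of the table, but the 5 genes were picked from it with their values in both groups known. Both K27M libraries lay above both EED-null libraries in all 5 genes, as in 45.5% of the table. All 5 genes were called lower in EED-null cells, against 27.8% of the listed genes and 35.8% of those lower in EZHIP cells. *Ddx60* differed most, 29.5-fold between the means, with a log2 difference of -4.84 (standard error 0.18, adjusted p = 4.40e-06 from limma), and it had rank 28 among the listed genes from the lowest difference. *Irf7* differed 23.01-fold and *Usp18* 16.8-fold, with adjusted p-values from limma of 6.98e-05 and 1.65e-06. The log2 difference of *Irf7* was -4.61 with all libraries, -5.21 without EED-null replicate 1 and -4.01 without EED-null replicate 2, and it was called in each case. *Stat2* and *Ddx58* differed 6.12-fold and 4.23-fold, with adjusted p-values from limma of 7.98e-06 and 8.88e-06, and had ranks 93 and 124. The median of all listed genes in this comparison was -0.01 on the log2 scale.

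**Figure D4:**
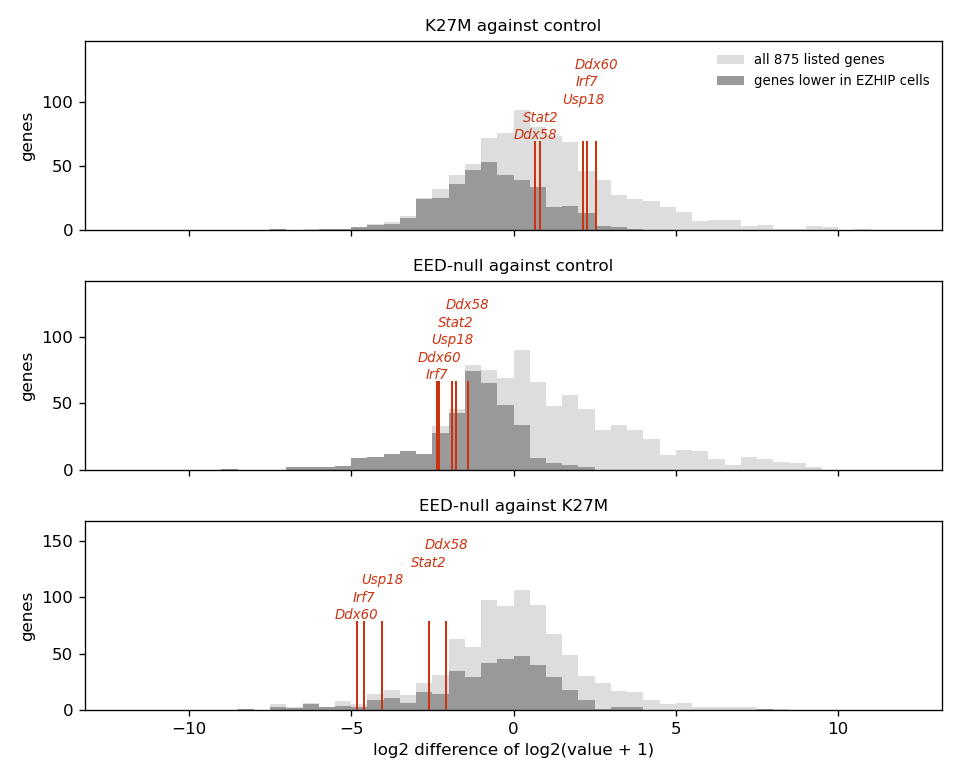
Histograms of the log2 difference of log2(value + 1) for all 875 listed genes (light) and for those lower in EZHIP cells (dark), with the 5 genes as red lines, for 3 comparisons. *Ddx58* and *Stat2* fall near the centre of all listed genes for K27M against control, while all 5 genes fall left of the centre for EED-null against K27M.

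EZHIP libraries had been used to choose the rows, so their comparison with K27M and EED-null cells was described only. K27M cells were 3.24-fold (*Ddx58*), 4.34-fold (*Stat2*), 12.2-fold (*Irf7* and *Usp18*) and 14.3-fold (*Ddx60*) above EZHIP cells. Both K27M libraries lay above both EZHIP libraries in all 5, as in 48% of the listed genes. EZHIP cells were in turn 1.31-fold (*Ddx58*), 1.37-fold (*Usp18*), 1.41-fold (*Stat2*), 1.88-fold (*Irf7*) and 2.07-fold (*Ddx60*) above EED-null cells. For each of the 5 genes this step was the smallest between neighbouring groups, and its libraries did not overlap, as in 39.8% of the listed genes. For *Irf7* it rested on the EED-null pair that differed from each other by more than the groups did.

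Other genes of the pathway were taken from 7 lists of textbook roles. Of their 152 names, 48 were in the table, the 5 genes included. Of the 43 others, 40 had a lower mean in EZHIP cells, 23 were called higher and 1 lower in K27M cells, and 36 were called lower and 2 higher in EED-null cells. Their median log2 fold change was 1.15 with K27M and -2.03 after loss of *EED*, against 0.58 and 0.40 for all listed genes. Higher calls with K27M made up 41.4% of all listed genes and 13.9% of those lower in EZHIP cells, and lower calls 20% and 39.7%. After loss of *EED*, lower calls made up 25.1% and 55%, and higher calls 39.9% and 2.89%. Between EED-null and K27M cells 40 of the 43 were called lower and 1 higher. Of all listed genes 27.8% were called lower and 26.6% higher, and of those lower in EZHIP cells 35.8% and 16.8%. No interferon ligand or receptor gene, of 17 looked for, was in the table. Genes not listed were not analysed here.

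Among sensors and adaptors, 4 further genes were listed. *Ifih1*, which encodes the sensor MDA5 of long double-stranded RNA, had a mean of 672 in control cells, against 271 with EZHIP, 1674 with K27M and 164 without *EED*, and was called higher in K27M and lower in EED-null cells. *Trim25*, whose product is a ubiquitin ligase that acts on RIG-I, was called higher in K27M cells with a log2 fold change of 1.62, and its -0.96 in EED-null cells was short of 2-fold. *Dhx58*, which encodes LGP2, a relative of RIG-I without its signalling domain, had 273 in control and 335 in K27M cells (log2 fold change 0.29, adjusted p = 0.335 from limma), but was called lower in EED-null cells at 26.2. *Tlr3*, the endosomal sensor of double-stranded RNA, had 156 in control, 227 in K27M (adjusted p = 0.0777 from limma) and 36.7 in EED-null cells, where it was called lower. All 4 were called lower in EED-null than in K27M cells.

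*Nlrc5*, which encodes the activator of MHC class I genes, was the other listed gene of signal transduction and transcription. Its libraries overlapped between control (mean 603) and K27M cells (mean 639), and it was called lower in EED-null cells (246). Of the negative regulators, *Trim30a* was called higher in K27M cells (839 against 416 in control) and lower in EED-null cells (12.1). *Parp14*, which encodes an ADP-ribosyltransferase, had 1051 in control and 1446 in K27M cells, under 2-fold, and was called lower in EED-null cells (220).

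**Figure D5:**
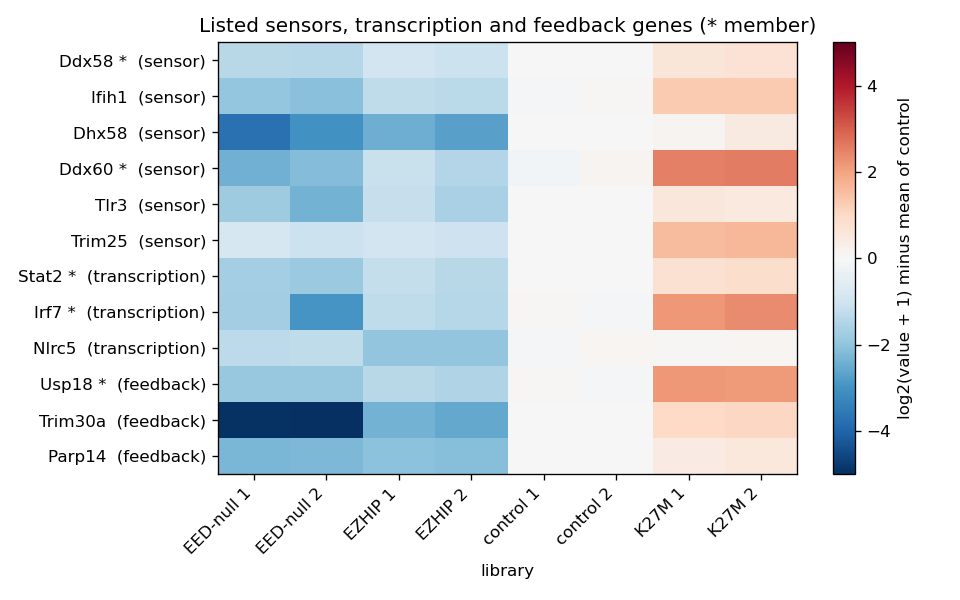
log2(value + 1) minus the control mean (colour) for the 12 listed sensors, transcription and feedback genes in each library, with asterisks on the 5 genes described. EED-null and EZHIP libraries are blue throughout, while K27M libraries range from nearly white for *Nlrc5* and *Dhx58* to red for *Ddx60*, *Irf7* and *Usp18*.

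Antiviral effectors formed the largest group, with 28 of 51 listed. Of these, 17 were called higher and 1 lower in K27M cells, and 27 were called lower and 1 higher in EED-null cells. The table as a whole had 41.4% called higher with K27M (13.9% of the genes lower in EZHIP cells) and 25.1% called lower after loss of *EED* (55% of the genes lower in EZHIP cells). The 4 with the highest mean were *Lgals3bp*, *Samd9l*, *Oasl2* and *Ifit3*. *Ifit3* and *Oasl2*, which encode antiviral proteins that interferon induces, were called higher in K27M cells with log2 fold changes of 2.05 and 1.72. *Lgals3bp* had 0.71 and *Samd9l* had 0.12, neither of them called, and loss of *EED* left each of them called lower. The exception in both directions was *Ifitm1*, a membrane protein of the antiviral IFITM family. Its control libraries had 21.6 and 26.6, its EZHIP libraries 85.2 and 84.4, its K27M libraries 4.64 and 12.2, and its EED-null libraries 129 and 123.

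Antigen presentation genes, which interferon also induces, had 5 of 16 listed. *H2-Q7* was called higher in K27M cells, and *Tap1*, *Tap2* and *Psmb8* were called lower in EED-null cells. *H2-K1*, the gene of the group with the highest values, had log2 fold changes of 0.70 with K27M and -0.91 after loss of *EED*, both under 2-fold. *H2-K1* and *H2-Q7* belong to a family of near-identical genes between which reads can be split, so their values are uncertain. Of 19 NF-κB targets, which RNA sensing activates through another branch, 3 were listed. *Ptgs2* and *Lif* were called higher in K27M cells, *Ptgs2* also in EED-null cells, and *Icam1* was called in neither comparison with control (105 in K27M, 31.9 in control and 19.5 in EED-null cells). *Ptgs2* and *Lif* were higher, not lower, in EZHIP cells (450 and 140 against 71.1 and 39.1 in control). *Icam1* was lower there, listed at 0 and 3.42 in the EZHIP libraries against 27.7 and 36.2 in the control libraries.

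The pattern of the 5 genes across libraries was compared with that of all other listed genes by Pearson's r with their standardized mean, over 8 libraries that form 4 groups of 2. The 5 genes most like it were *Ifih1*, *Oasl2*, *Igtp*, *Gbp3* and *Rsad2*, with r between 0.987 and 0.998, and all of them are on the lists of sensors or effectors. An r of at least 0.95 was reached by 38 genes, 27 of them on a pathway list. Each of the 5 genes had an r between 0.981 and 0.990 with the mean of the other 4. Within the 5, *Ddx58* and *Stat2* were the most alike (r = 0.999). With so few groups, many genes share such a pattern, and by Spearman's rho 30 genes lay above the lowest of those named.

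Promoters of the pathway genes were searched in the same way. Of the 43 listed pathway genes besides the 5, 30 had an entry, and 12 of these (40%) held the ISRE core. It was found in 12.8% of the listed genes lower in EZHIP cells that had an entry and in 3.99% of all 27025 genes with an entry. The listed genes lower in EZHIP cells include the 5 genes and 40 of the 43 others, so the sets overlap. These shares are given without a test.

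Markers of the cell type were checked as far as the table allows. Of 16 fibroblast markers 3 were listed. *Col3a1*, a fibrillar collagen gene, had a mean of 17455 in control cells, 6532 with EZHIP, 2361 with K27M and 5687 without *EED*, and *Fbn1*, of the microfibrils, had 4738, 2062, 2597 and 1389. *Dcn*, which encodes the matrix proteoglycan decorin, instead followed the order of the 5 genes, with 372 in control cells, 154 with EZHIP, 3224 with K27M and 71.5 without *EED*. Of 13 leukocyte markers 0 were listed, and of 8 endothelial markers only *Kdr*, with 9.42 in control cells, 51.7 with EZHIP, 189 with K27M and 10.9 without *EED*. The summed level of the 3 listed fibroblast markers was 22340 to 22790 in control libraries, 8407 to 9090 in EZHIP libraries, 7869 to 8495 in K27M libraries and 7076 to 7219 in EED-null libraries. In control cells most of this sum was *Col3a1*, and the sum hides the rise of *Dcn* in K27M cells. All 3 were listed because they differed between EZHIP and control cells, so a change there was fixed by the selection. The part of these markers in the interferon values was not tested.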

How the data were processed

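RNA was prepared with Trizol, depleted of ribosomal RNA and sequenced in 8 libraries, 2 per group, after RNA of FFT cells had been added to each sample. Per the labels, reads were aligned to an mm9 transcriptome, and RSEM 1.2.4 is named in the submitters' processing notes. EBSeq was the authors' caller for differential genes. The deposited signal is the estimated read number per gene and library divided by a size factor, and the authors restricted the table to genes at least 2-fold different between EZHIP and control cells by EBSeq. Whether the added RNA entered the size factors is not given in the sources used here.

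Within a library all values were multiples of 0.01 of the value of 1 read, and between 72.2% and 82.5% of them were whole reads (within 0.005), so no count model was fitted. Groups and replicate numbers came from the sample titles, and all columns were used. limma 3.58.1 in R 4.3.3 was fitted to log2(value + 1) with a mean per group, after a check on simulated data. All other steps used Python 3.11.15 (pandas 2.3.3, numpy 2.4.6) with intervals from scipy 1.17.1 and plots from matplotlib 3.10.9. Poisson intervals cover counting error only. Gene positions are those of GENCODE on mm9, and promoters are RefSeq's on GRCm38.p6, with which no mm9 coordinate was combined.

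The 5 genes, the gene lists, the motifs and the tests were chosen with earlier results of these data known. Named genes were the 5, all listed sensors, transcription and feedback genes, up to 4 genes per other list with the highest mean, and the 5 genes most like the 5 in pattern. *Ifitm1*, *Psmb8*, *Dcn* and the other markers were named after their values were seen. Alternatives were rescaling to the listed genes, leaving out libraries in turn, pseudocounts of 0.1 and 5, a minimum mean of 5, blocking on the replicate number, fits of the compared groups alone, a limma trend, the adjusted p alone, other correlations and other motifs.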

Additional observations from a re-analysis of the deposited data

Results flagged for a closer look

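The responses of the 5 genes to loss of *EED* and to K27M, both measured against control, had opposite signs. *Ddx58* and *Stat2* were not called in K27M cells. The difference between the responses was tested with limma, and the log2 difference of EED-null minus K27M was -2.08 for *Ddx58* (adjusted p = 8.88e-06 from limma), -4.84 for *Ddx60* (adjusted p = 4.40e-06 from limma), -4.61 for *Irf7* (adjusted p = 6.98e-05 from limma), -2.61 for *Stat2* (adjusted p = 7.98e-06 from limma) and -4.05 for *Usp18* (adjusted p = 1.65e-06 from limma). Control cancels in this difference, so its p-values do not test either direction against control. The 5 genes were picked with their values in both groups known, and 27.8% of all listed genes were called lower in EED-null than in K27M cells. Each of these 5 genes was lower than control in both EED-null libraries and higher in both K27M libraries. Of all listed genes, 38.6% were lower and 57.4% higher in this way, each counted separately.

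EZHIP and K27M also moved the 5 genes apart, since all EZHIP libraries lay below and all K27M libraries above control. The log2 difference of K27M minus EZHIP was 1.69 for *Ddx58*, 3.82 for *Ddx60*, 3.60 for *Irf7*, 2.12 for *Stat2* and 3.60 for *Usp18*. This difference was not tested, because the EZHIP libraries had been used to choose the genes of the table. The control libraries had been used there too, so the directions against control share that limit.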

How the results depend on the processing

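The 5 genes kept the direction of their change in K27M and EED-null cells against control, and in EED-null against K27M cells, under every alternative tried. By the adjusted p alone, 5 genes instead of 3 passed in K27M cells at the deposited scale, with *Ddx58* and *Stat2* added. With rescaled libraries the adjusted p of *Ddx58* in K27M cells was 0.0655 from limma, so it would not pass. With each library left out in turn, 3 genes were called in K27M cells, 5 in EED-null cells and 5 between them, and the pathway genes called were 20 to 24, 36, and 39 to 41. With rescaled libraries, 16 instead of 23 pathway genes were called higher in K27M cells, and the log2 difference between EZHIP and control became -1.34 for *Ddx58*, -1.60 for *Ddx60*, -1.65 for *Irf7*, -1.61 for *Stat2* and -1.77 for *Usp18*. Spearman's correlation ranked 0 of the 5 genes most alike among its own first 5, although their rho was between 0.929 and 0.976. The shorter IRF element AANNGAAA, which the ISRE core contains, matched in 3 of 4 promoters and in 23.9% of all promoters, and the variant with a spacer of 1 base in 2 of 4.

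Replicate numbers were shared between groups, but same-numbered libraries did not deviate together, with correlations of their deviations from the group means between -0.0893 and 0.105 over the pairs of groups. With the replicate block, 3 genes were called in K27M cells, 5 in EED-null cells and 5 between them, and 24, 36 and 40 pathway genes, so that the block changed no call of the 5 genes. Depth limits *Ddx60* in EED-null and EZHIP cells, at 17 to 51 estimated reads, and *Irf7* in EED-null cells, at 28 and 46.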

Other observations

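Besides the 5 genes, 36 listed genes had the order EED-null, EZHIP, control, K27M without overlap between groups. Of these, 25 were on a pathway list and 11 were on none. The latter, named after their values were seen, include *Dcn*, *Col14a1*, *Adamts15* and *Car9*, which encode matrix and cell surface proteins, and *Mndal*, *Ifi203*, *Sp110* and *Sp140*, which belong to families of nuclear proteins with interferon-induced members. All 36 belong to the genes lower in EZHIP cells, of which 10.8% had this order.

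Listed genes within 1000000 bases of the 5 genes on mm9 did not share their pattern. The log2 fold changes of *B4galnt4* near *Irf7* were 2.38 in K27M and 1.85 in EED-null cells, and those of *Ifitm1*, also near *Irf7*, were -1.53 and 2.35. *Cecr2* near *Usp18* had 4.41 and 6.63, and *Gli1* and *Mmp19* near *Stat2* had 0.58 and 0.39 in K27M cells and 0.36 and 0.26 in EED-null cells. No other listed gene lay that close to *Ddx58* or *Ddx60*.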
